A study of Mus musculus with 23 samples.

Results

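Chemokines are small secreted proteins that steer the movement of immune cells, and their receptors are G protein-coupled proteins on the cells that respond. The chemokine gene set described here was chosen by symbol: all probe sets of the array named Ccl, Cxcl, Xcl, Ccr, Cxcr, Ackr or Ccrl with a number, plus Cx3cl1, Xcr1 and Pf4. It held 62 of the 22203 probe sets, of which 40 measured ligand genes and 22 measured receptor genes, and the 62 carried 61 symbols. The microglial fractalkine receptor gene Cx3cr1 was not part of the set.

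The values come from 23 mouse microarrays of microglia, the resident macrophages of the brain, sorted from cortex and hippocampus by the surface proteins CD45 and CD11b. Gated APP samples (n = 4) came from 12-month-old APPswlnd mice, a line with a transgene for the human amyloid precursor protein, and gated TAU samples (n = 4) came from 9-month-old P301S (PS19) mice, whose transgene for human mutant tau is driven by the prion protein promoter. In these 2 groups, which the labels call pathologic, the cells were further sorted for Clec7a, a C-type lectin receptor, and are named active microglia. Aged WT samples (n = 4) came from 12-month-old C57BL6 mice. Young APP (n = 3), young TAU (n = 4) and young WT (n = 4) samples came from the same 3 strains at 3 months, an age called pre-pathology for both transgenic lines. No Clec7a gate is named for the aged WT or the young groups, so strain, pathology and gate differed together between gated and aged WT samples and cannot be told apart. Age differed as well for gated TAU. The titles of the gated TAU samples say 12 months, whereas their age and source fields say 9 months, which was used. The labels call the replicates biological without saying that different mice gave them, so a p-value here reflects only how far these samples scatter.

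As background, chemokines are grouped by the spacing of their first cysteines. Most CC ligands draw monocytes, macrophages and T cells, most CXC ligands with an ELR motif draw neutrophils, and the CXC ligands induced by interferon draw activated T cells. Ligand genes are often transcribed within hours of a stimulus under factors such as NF-kB, AP-1, STAT and IRF proteins. Microglia are known both as a source of chemokines, among them Ccl3 and Ccl4, and as cells that move along chemoattractant gradients in the injured brain.

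Promoters of 4 ligand genes are shown because the results below turn on them: Cxcl2 and Ccl6 were higher in both gated groups, Cxcl10 was above background in the gated groups only, and Ccl9 differed between the gated groups. Each sequence is the RefSeq window (GRCm38.p6) from 250 bases before to 50 bases after the transcription start, 5′ to 3′ on the strand of the gene, with capitals for a match to any of 3 motifs. The motifs were the kappa B consensus bound by NF-kB, the interferon-stimulated response element core (GAAA, any 2 bases, GAAA) and the AP-1 core TGANTCA, each searched on both strands. The windows lie at chr5:90903649-90903948 (plus strand, Cxcl2), chr11:83593038-83593337 (minus strand, Ccl6), chr5:92348840-92349139 (minus strand, Cxcl10) and chr11:83578587-83578886 (minus strand, Ccl9).
Cxcl2: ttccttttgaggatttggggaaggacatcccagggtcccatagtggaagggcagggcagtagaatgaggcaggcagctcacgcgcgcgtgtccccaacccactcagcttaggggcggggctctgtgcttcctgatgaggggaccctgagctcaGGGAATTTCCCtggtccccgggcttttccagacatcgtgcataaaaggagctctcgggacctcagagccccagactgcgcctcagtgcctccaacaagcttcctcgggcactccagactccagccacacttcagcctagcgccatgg
Ccl6: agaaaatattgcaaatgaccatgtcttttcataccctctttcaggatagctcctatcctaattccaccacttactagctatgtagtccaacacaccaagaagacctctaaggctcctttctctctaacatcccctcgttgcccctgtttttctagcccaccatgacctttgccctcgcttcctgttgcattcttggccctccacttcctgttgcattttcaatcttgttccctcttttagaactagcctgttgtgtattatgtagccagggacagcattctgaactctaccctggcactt
Cxcl10: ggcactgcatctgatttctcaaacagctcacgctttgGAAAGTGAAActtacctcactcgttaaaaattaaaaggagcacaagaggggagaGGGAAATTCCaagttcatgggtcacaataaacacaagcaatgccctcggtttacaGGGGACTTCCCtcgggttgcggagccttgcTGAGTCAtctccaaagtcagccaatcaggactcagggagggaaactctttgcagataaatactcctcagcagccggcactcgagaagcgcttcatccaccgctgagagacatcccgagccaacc
Ccl9: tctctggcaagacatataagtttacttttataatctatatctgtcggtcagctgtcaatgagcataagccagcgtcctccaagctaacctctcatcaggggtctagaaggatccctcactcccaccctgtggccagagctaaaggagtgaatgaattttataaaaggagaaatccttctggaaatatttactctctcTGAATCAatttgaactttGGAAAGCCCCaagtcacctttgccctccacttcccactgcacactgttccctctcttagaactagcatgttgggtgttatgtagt
In the Cxcl2 window, 2 overlapping kappa B matches start 97 and 96 bases before the transcription start. The Cxcl10 window holds kappa B matches starting 159, 104 and 103 bases before the start, the last 2 of them overlapping, together with a response element core at 213 bases and an AP-1 core at 74 bases. The Ccl9 window holds a kappa B match at 35 bases and an AP-1 core at 53 bases, and the Ccl6 window holds none of the 3 motifs. The RefSeq table held 52 windows for 46 genes of the set. A kappa B match was in 13 of the 52 windows (25.0%), against 8.46% of all 32851 promoter windows. The response element core was in 3 of the 52 (5.77%, against 3.44%) and the AP-1 core in 8 (15.4%, against 7.81%). A match is a run of letters and says nothing about whether a factor binds there. The same 3 motifs were absent from the windows of Ccl3, Cxcl13 and Ccl12, 3 further ligand genes that were higher in gated TAU than in aged WT. Of the genes called higher in gated TAU against aged WT that have a window, 3 of 11 held a kappa B match, and of the other genes of the set 10 of 35 did. The AP-1 core was in 3 of the 11 (Ccl9, Cxcl9 and Cxcl10) and 5 of the 35. The response element core was in 2 of the 11 (Cxcl10 and Cxcl14) and 1 of the 35. These counts were not tested.

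The microglial identity of the samples was checked first. All 11 measured microglia markers, P2ry12, Tmem119 and Csf1r among them, were above background in every group. Against aged WT, 5 of the 11 were called lower in gated APP and 7 in gated TAU. Tmem119, for example, was at 10.27 in gated APP and 10.69 in gated TAU, against 13.58 in aged WT. Of 9 measured monocyte markers only Ly6c1 was above background in any group, and Ccr2, Plac8, Chil3 and Ly6c2 were at background in every group. Of 9 neutrophil markers, Csf3r was above background in every group, S100a9 in the 4 ungated groups and Ngp in young TAU and young WT, and S100a8 was called lower in both gated groups than in aged WT. Of 8 neuron markers 3 were above background in every group, of 8 astrocyte markers 2 to 3, and of 8 oligodendrocyte markers Mbp alone. The astrocyte gene Gfap and the endothelial gene Flt1 were called higher in gated APP than in aged WT, by 2.43 ± 0.32 and 2.08 ± 0.31. The endothelial gene Pecam1 was called lower there, at 6.52 ± 0.75 against 7.69 ± 0.50, both under background. Median log2 fold changes were -0.25 over the 8 astrocyte markers and 0.14 over the 9 endothelial and pericyte markers. The part of such cells in the chemokine values was not tested. Arrays had medians between 6.87 and 7.13 on the log2 scale. On the leading principal component (30.3% of the variance) the 8 gated samples had scores of 33.8 to 69.0, and the other 15 samples had scores of -45.6 to -9.0. Aged WT replicates 2 and 4 stood apart on the next component (20.6%), with scores of 86.2 and 73.0, against -51.6 to 24.8 in the other samples. They also had the highest background levels of the 23 arrays, 8.70 and 8.71. Counts against aged WT are therefore also given without them.

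The array has no detection call, so the level of genes that microglia lack served as background. It was the 95th percentile of the 1452 olfactory, vomeronasal and taste receptor probe sets, which lay at 7.75 in gated APP, 7.82 in gated TAU, 8.11 in aged WT, 8.0 in young APP, 7.89 in young TAU and 7.73 in young WT. By this measure most of the chemokine system was not detectable in these microglia. Of the 62 probe sets, 21 had a group mean above background in at least 1 group, namely 16 ligands and 5 receptors. The other 41, 24 ligands and 17 receptors, stayed at or below it in all 6 groups, with group means between 4.19 and 7.82. Gated APP had 20 members above background (32.3%) and gated TAU had 19 (30.6%). Aged WT had 14 (22.6%), young APP 14 (22.6%), young TAU 15 (24.2%) and young WT 16 (25.8%). Among all probe sets, 36.5% were above background in gated APP, 35.3% in gated TAU, 32.6% in aged WT, 34.1% in young APP, 35.3% in young TAU and 37.3% in young WT. The share of chemokine probe sets above background was thus below that of all probe sets in each of the 6 groups.

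**Figure D1:**
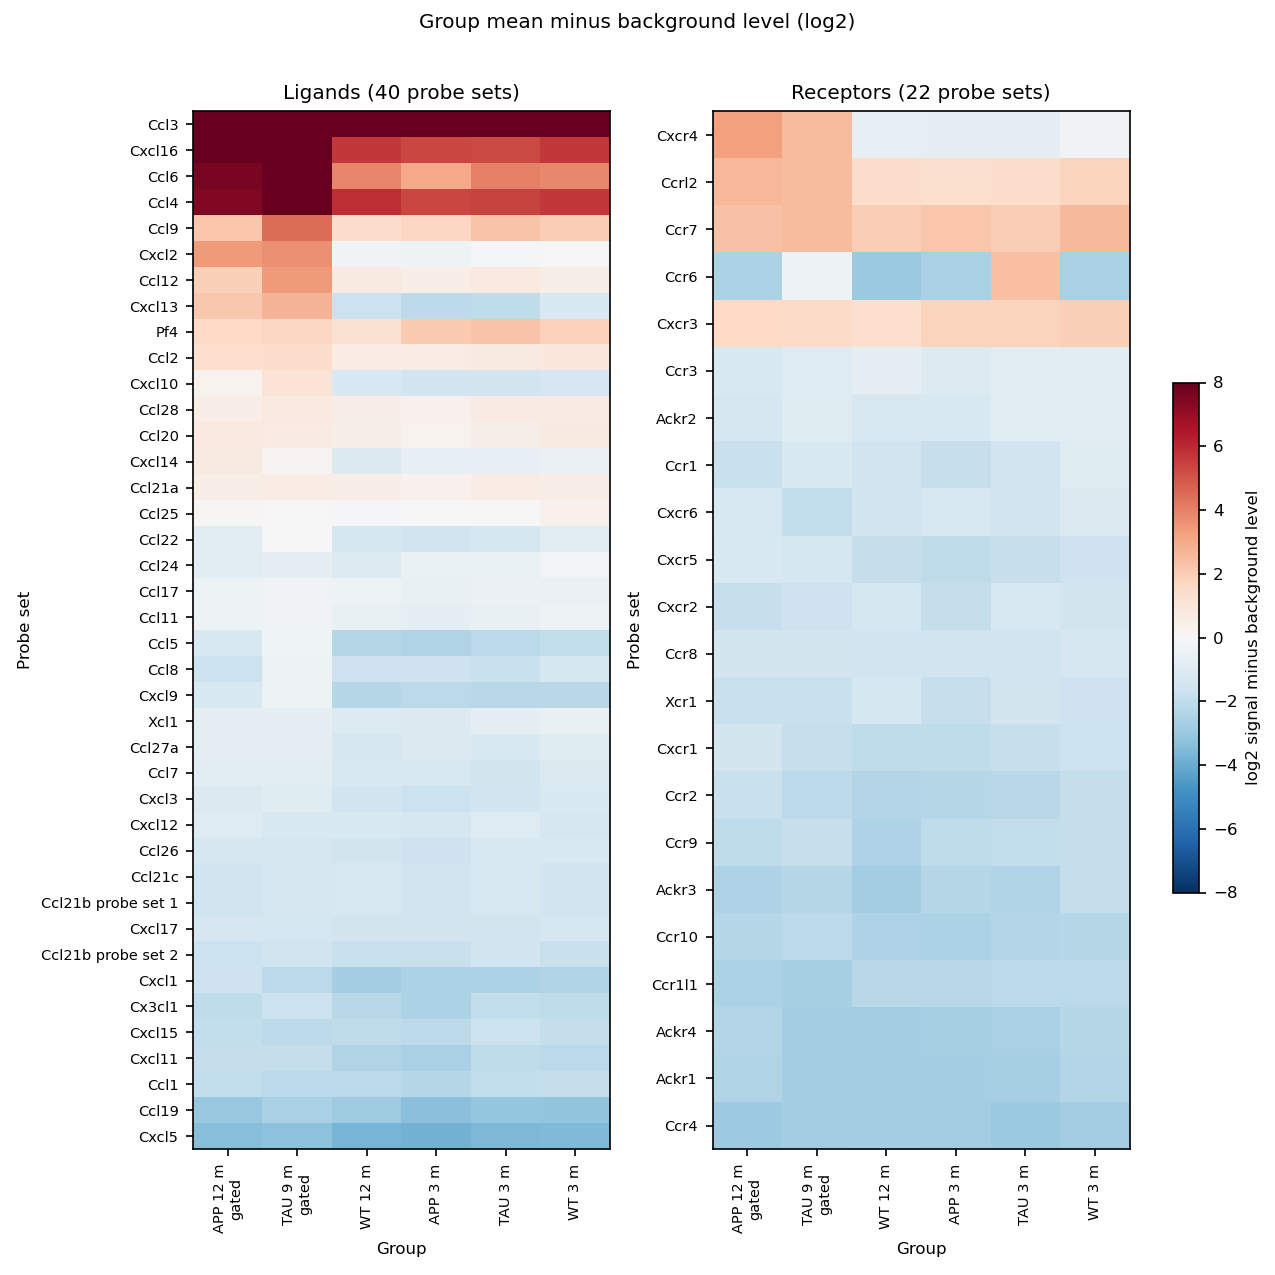
Group mean minus the background level of that group (log2, colour scale) for the 40 ligand and 22 receptor probe sets in the 6 groups. Red cells lie above background: 14 probe sets are red in all 6 columns, Cxcl13, Cxcl14, Cxcl10 and Cxcr4 in the gated columns only, and 41 are red in none.

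The 14 members above background in all 6 groups were the ligands Ccl2, Ccl3, Ccl4, Ccl6, Ccl9, Ccl12, Ccl20, Ccl21a, Ccl28, Cxcl16 and Pf4, and the receptors Ccr7, Cxcr3 and Ccrl2. Of these, Ccl20, Ccl21a and Ccl28 stayed under the 99th percentile of the olfactory, vomeronasal and taste receptor probe sets in all 6 groups. Cxcl13, Cxcl14, Cxcl10 and Cxcr4 were above background in both gated groups and in no other group. Cxcl2 was above it in both gated groups and, at 7.78 against a level of 7.73, in young WT. Ccl25 was above it in gated APP (7.83) and young WT (8.05), within its own spread. Ccr6 was above it in young TAU alone.

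Against aged WT, gated APP microglia had 8 of the 62 members called higher and 1 lower. Among all probe sets 5.6% were called higher and 3.48% lower (limma, adjusted p under 0.05). The members called higher were the ligands Ccl3, Ccl6, Cxcl1, Cxcl2, Cxcl13, Cxcl14 and Cxcl16 and the receptor Cxcr4, and the lower one was the receptor Ccr3. Gated TAU microglia had 14 of 62 called higher and 0 lower (37.1% of members and 22.0% of all probe sets had an unadjusted p under 0.05), against 5.09% of all probe sets higher and 3.67% lower. These were Ccl3, Ccl4, Ccl5, Ccl6, Ccl9, Ccl12, Ccl22, Cxcl2, Cxcl9, Cxcl10, Cxcl13, Cxcl14, Cxcl16 and Cxcr4. Both comparisons share the 4 aged WT arrays, so their values are given side by side, with no test of the overlap. The median log2 fold change over the 62 members was -0.02 in gated APP, where the median of all probe sets was -0.06, and 0.11 in gated TAU, where it was -0.05. In a bulk sample, fewer cells of a type and less RNA per cell cannot be told apart. Without aged WT replicates 2 and 4 the counts were 6 higher and 1 lower in gated APP and 11 higher in gated TAU. The 1 lower was not Ccr3, whose call was lost in that fit (adjusted p = 0.0695).

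Ccl3 and Ccl4, which encode macrophage inflammatory proteins that draw monocytes and T cells, stood far above background in every sample. Ccl3 had log2 signals of 17.44, 17.96, 17.80 and 17.41 in gated APP and of 18.43, 18.02, 18.21 and 17.72 in gated TAU, against 17.14, 16.61, 16.47 and 16.01 in aged WT. Every gated sample was above every aged WT sample. The log2 fold change was 1.10 ± 0.32 (SE) in gated APP (adjusted p = 0.0334) and 1.54 ± 0.32 in gated TAU (adjusted p = 0.00317). Neither call held without aged WT replicates 2 and 4, with adjusted p = 0.279 for gated APP and 0.0591 for gated TAU. In gated APP the call was also lost with array weights (adjusted p = 0.0671) and after quantile normalization (adjusted p = 0.113). Ccl4 had signals of 15.19, 15.23, 15.06 and 15.08 in gated APP and of 16.40, 15.82, 15.85 and 15.22 in gated TAU, against 14.56, 14.10, 13.79 and 13.53 in aged WT. The gated and aged WT samples did not overlap. Ccl4 was called in gated TAU, at 1.83 ± 0.40 (adjusted p = 0.00406, and 0.0546 without aged WT replicates 2 and 4). The fold change of 1.14 ± 0.40 in gated APP did not pass (adjusted p = 0.0768).

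Ccl6, a CC ligand of mice that acts on Ccr1, was among the members with the largest differences, and Cxcl16, a membrane-bound ligand of Cxcr6 that also takes up oxidized lipoproteins, moved in the same direction. Ccl6 signals were 15.35, 15.33, 15.56 and 15.08 in gated APP and 16.30, 16.19, 15.96 and 16.20 in gated TAU, against 12.14, 11.63, 12.15 and 12.06 in aged WT. Every gated sample lay far above every aged WT sample, and gated TAU lay above gated APP. Ccl6 was 10.1-fold higher in gated APP (adjusted p = 4.65e-09) and 18-fold higher in gated TAU (adjusted p = 1.49e-10) than in aged WT. Cxcl16 signals were 15.83, 15.76, 15.93 and 15.56 in gated APP and 16.14, 16.17, 16.32 and 16.19 in gated TAU. In aged WT they were 14.38, 13.62, 13.92 and 13.19, again without overlap. Cxcl16 was 3.98-fold higher in gated APP (adjusted p = 1.14e-06) and 5.38-fold higher in gated TAU (adjusted p = 8.5e-08). The calls for Ccl6 and Cxcl16 held under every alternative that was run.

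Cxcl2, an ELR chemokine that draws neutrophils through Cxcr2, was at background in aged WT and well above it in both gated groups. Its signals were 10.90, 11.44, 11.98 and 10.32 in gated APP and 11.98, 11.97, 11.37 and 10.54 in gated TAU, against 8.81, 7.65, 7.49 and 7.43 in aged WT. All 8 gated samples were higher than all 4 aged WT samples, of which replicate 1 was the highest. Where the lower group is at background, a fold is given as a lower bound, with each array of that group set at the higher of its own signal and its own background level. Cxcl2 was at least 6.64-fold higher in gated APP (adjusted p = 4.33e-07) and at least 8.21-fold higher in gated TAU (adjusted p = 1.58e-07).

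Cxcl13, the ligand of Cxcr5 best known for drawing B cells, had signals of 10, 9.99, 9.95 and 9.75 in gated APP and of 9.25, 13.09, 10.59 and 9.28 in gated TAU. Aged WT samples were at 5.77, 6.33, 6.57 and 6.96, all below background. The 4 gated APP samples lay within 0.25 log2 units of each other, whereas gated TAU replicate 2 was far above the other 3 gated TAU samples. Cxcl13 was at least 3.38-fold higher in gated APP (adjusted p = 4.54e-05) and at least 5.24-fold higher in gated TAU (adjusted p = 7.29e-06).

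Cxcl14, a CXC ligand whose receptor is not settled, and Cxcl10, an interferon-induced ligand of Cxcr3, passed background by less. Cxcl14 had 8.30, 8.35, 8.94 and 8.21 in gated APP and 8.05, 7.82, 8.57 and 7.60 in gated TAU, against 7.15, 6.36, 7.36 and 7.03 in aged WT. The groups did not overlap, and both gated groups were called, at 1.48 ± 0.24 for gated APP (adjusted p = 0.00019, at least 1.19-fold) and at 1.03 ± 0.24 for gated TAU (adjusted p = 0.00771). The gated TAU call was lost without aged WT replicates 2 and 4 (adjusted p = 0.125) and in a fit of the compared groups alone (adjusted p = 0.0526). Cxcl10 had 8.84, 8.43, 7.47 and 7.44 in gated APP and 9.21, 9.07, 9.72 and 7.59 in gated TAU, against 6.91, 6.98, 7.39 and 6.40 in aged WT. In each gated group some samples were near background and others above it. Cxcl10 was called in gated TAU, where it was at least 1.62-fold higher (adjusted p = 0.00106), and not in gated APP, where the fitted log2 difference was 1.12 ± 0.37 (adjusted p = 0.0594).

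**Figure D2:**
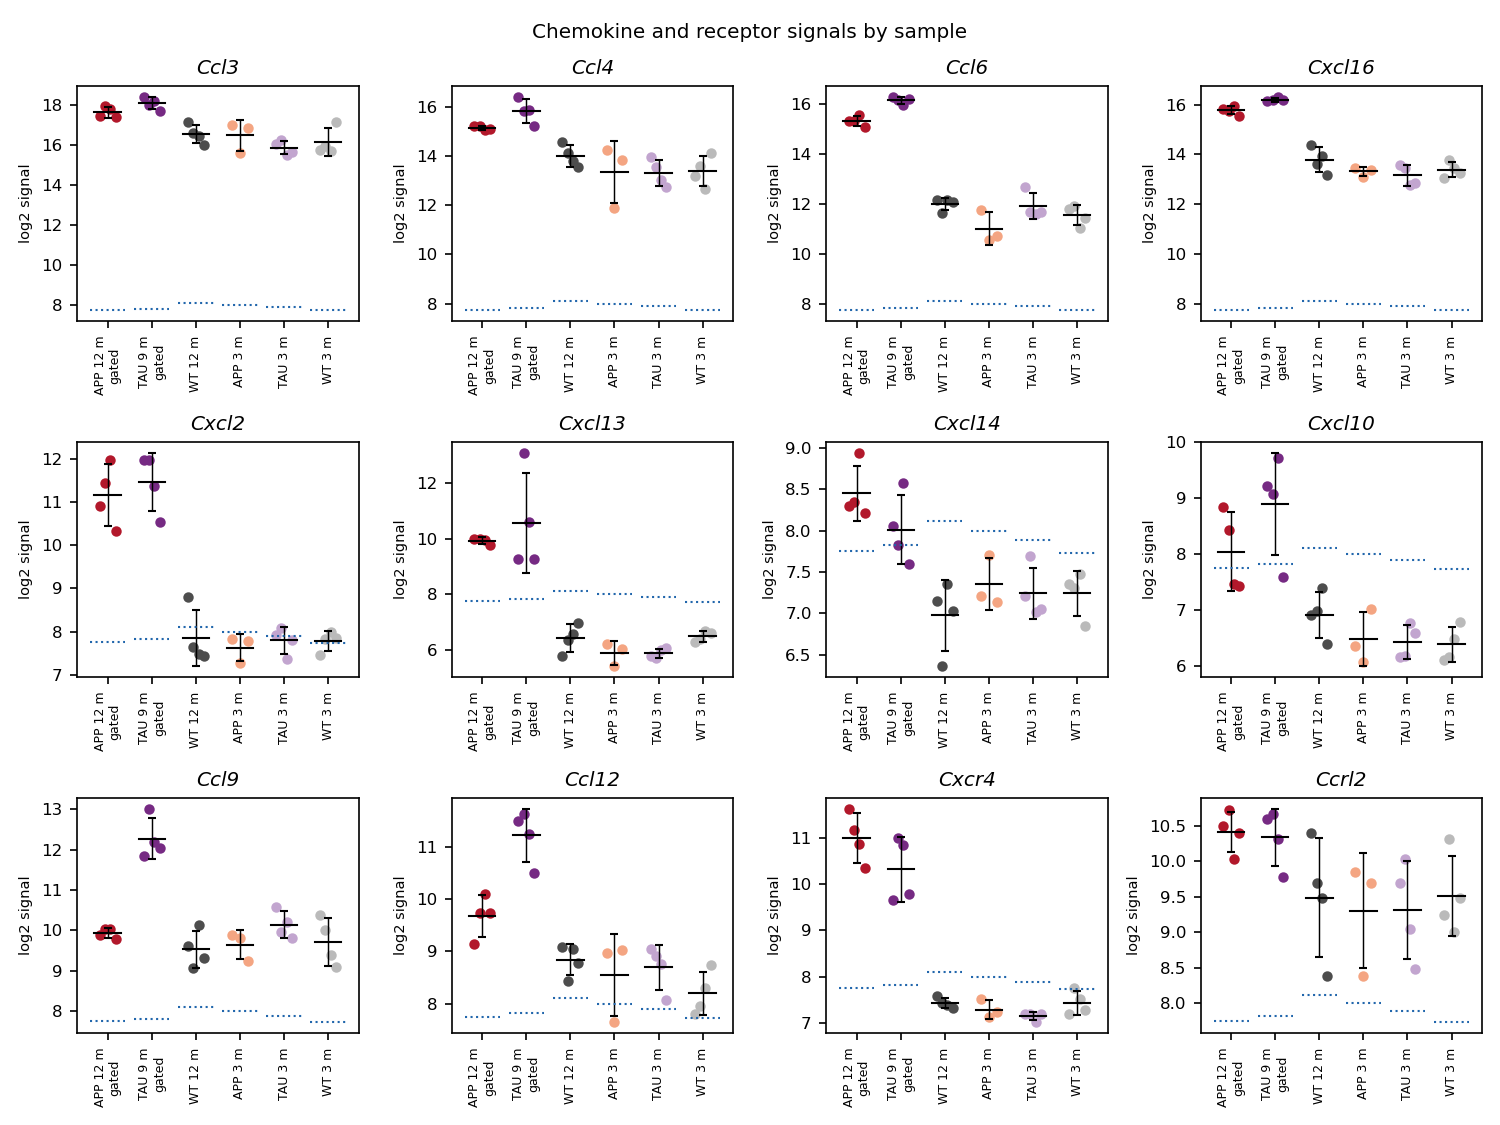
Log2 signals of 12 members in every sample of the 6 groups, each panel with its own axis. Points are samples, bars the group mean and 1 SD, and dotted lines the background level of the group: Cxcl2, Cxcl13 and Cxcr4 lie near or below it in the 4 ungated groups and at 9.25 or higher in all 8 gated samples.

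The direct comparison of the gated groups asks whether the active microglia of the amyloid and tau lines differ, at 12 months in gated APP and 9 months in gated TAU, so that line and age cannot be told apart. Gated APP had 0 members called higher (21.0% of members and 9.18% of all probe sets had an unadjusted p under 0.05) and 4 lower than gated TAU, where 0.626% of all probe sets were higher and 0.302% lower. The 4 were the CC ligands Ccl9, Ccl12, Ccl5 and Ccl8, and all 4 genes lie on chromosome 11, as do 14 of the 62 members. The median log2 fold change was -0.16 over the members and -0.00 over all probe sets. A fit of these 8 samples alone called 2 members, with the calls of Ccl5 (adjusted p = 0.174) and Ccl8 (adjusted p = 0.152) lost. A fit of probe sets above background only also called 2 members. That filter removes Ccl5 and Ccl8 beforehand, so this fit could not call them and does not try their calls.

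Ccl9, which with its chromosomal neighbour Ccl6 is a ligand of Ccr1, had signals of 9.89, 10.03, 10.03 and 9.79 in gated APP, against 11.85, 13.01, 12.18 and 12.04 in gated TAU. Aged WT samples were at 9.62, 9.07, 10.14 and 9.32, which the gated APP samples overlapped and the gated TAU samples exceeded. Ccl9 was 5.05-fold lower in gated APP than in gated TAU (log2 fold change -2.34 ± 0.28, adjusted p = 2.81e-05) and 6.65-fold higher in gated TAU than in aged WT (adjusted p = 6.07e-07). Gated APP differed from aged WT by 0.40 ± 0.28 (adjusted p = 0.447, 95% interval -0.19 to 0.99). Ccl6 itself was 0.83 ± 0.26 lower in gated APP than in gated TAU, with no overlap of the samples and no call (adjusted p = 0.191).

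Ccl12, a mouse ligand of Ccr2 that draws monocytes, had signals of 9.14, 9.74, 10.10 and 9.73 in gated APP, against 11.51, 11.64, 11.26 and 10.50 in gated TAU. In aged WT they were 9.08, 8.44, 9.05 and 8.78, so that the 3 groups stood one above the other. Ccl12 was 2.93-fold lower in gated APP than in gated TAU (adjusted p = 0.0101), and gated TAU was 5.24-fold above aged WT (adjusted p = 1.5e-05). The call between the gated groups was lost without gated APP replicate 1 (adjusted p = 0.0505) or gated TAU replicate 2 (adjusted p = 0.051). Against aged WT, gated APP stood at 0.84 ± 0.31 (adjusted p = 0.104).

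Ccl5 and Ccl8 were at background in both gated groups, so their differences are given as values with no fold. Ccl5, which encodes the T cell attractant RANTES, had 6.77, 6.07, 6.63 and 6.42 in gated APP, against 7.36, 6.99, 8.05 and 7.44 in gated TAU (log2 difference -0.99 ± 0.21, adjusted p = 0.0141). Aged WT samples were at 5.76, 6.04, 5.55 and 5.94. Ccl8, a CC ligand of the monocyte chemoattractant group, had 6.48, 5.59, 5.40 and 6.52 in gated APP, against 7.18, 7.66, 8.17 and 6.69 in gated TAU (log2 difference -1.43 ± 0.34, adjusted p = 0.041). In both genes the 2 gated groups did not overlap, and gated TAU replicate 3 was the highest sample. The Ccl5 call was lost without gated APP replicate 2 (adjusted p = 0.0798) or gated TAU replicate 3 (adjusted p = 0.0602). The Ccl8 call was lost without gated TAU replicate 3 (adjusted p = 0.14) and in 10 other fits that leave out 1 sample.

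Of the markers of border macrophages, the macrophages of the meninges and vessels, 3 were also called lower in gated APP than in gated TAU. Ms4a7 was at 9.54, 9.76, 10.26 and 9.37 in gated APP, against 11.48, 12.23, 14.27 and 11.17 in gated TAU, and at 8.58, 8.09, 9.27 and 8.97 in aged WT. Stab1 was at 11.17 ± 0.14 in gated APP and 13.12 ± 0.50 in gated TAU, and Mrc1 at 9.04 ± 0.45 and 10.72 ± 0.72 (SD, n = 4 each), while aged WT had Stab1 at 14.33 ± 0.38 and Mrc1 at 10.20 ± 0.33. Folr2 went the other way without a call, at 8.01 ± 0.54 in gated APP and 7.52 ± 0.39 in gated TAU. Against aged WT, gated APP had Folr2 called higher and Stab1 and Cbr2 lower, and gated TAU had Ms4a7 higher and Stab1 lower. Both gated groups had 4 of the 10 border macrophage markers above background. Mrc1, Stab1 and Ms4a7 were among them in both, with Folr2 in gated APP and Cbr2 in gated TAU. The median over the 10 ranged from 7.22 to 7.34 in gated APP samples, 7.28 to 7.66 in gated TAU samples and 7.35 to 7.45 in aged WT samples. Lyve1 and Cd163 were at background in every group. Of 12 T and natural killer cell markers, 2 were above background in each of gated APP, gated TAU and aged WT, and the T cell genes Cd3e, Cd3d and Cd3g were at background in every group. Il7r was called lower in both gated groups, at 7.51 ± 0.66 in gated APP and 7.43 ± 0.53 in gated TAU, against 10.08 ± 0.31 in aged WT. Cd4 was at 8.09 ± 0.30 in gated APP and 8.06 ± 0.46 in gated TAU, against 8.26 ± 0.74 in aged WT. The natural killer cell gene Klrb1c was at 8.05 ± 0.31 in gated APP and 9.65 ± 0.43 in gated TAU, against 8.03 ± 1.10 in aged WT (adjusted p = 0.0443 for gated TAU). The part of these cells in the chemokine differences was not tested.

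**Figure D3:**
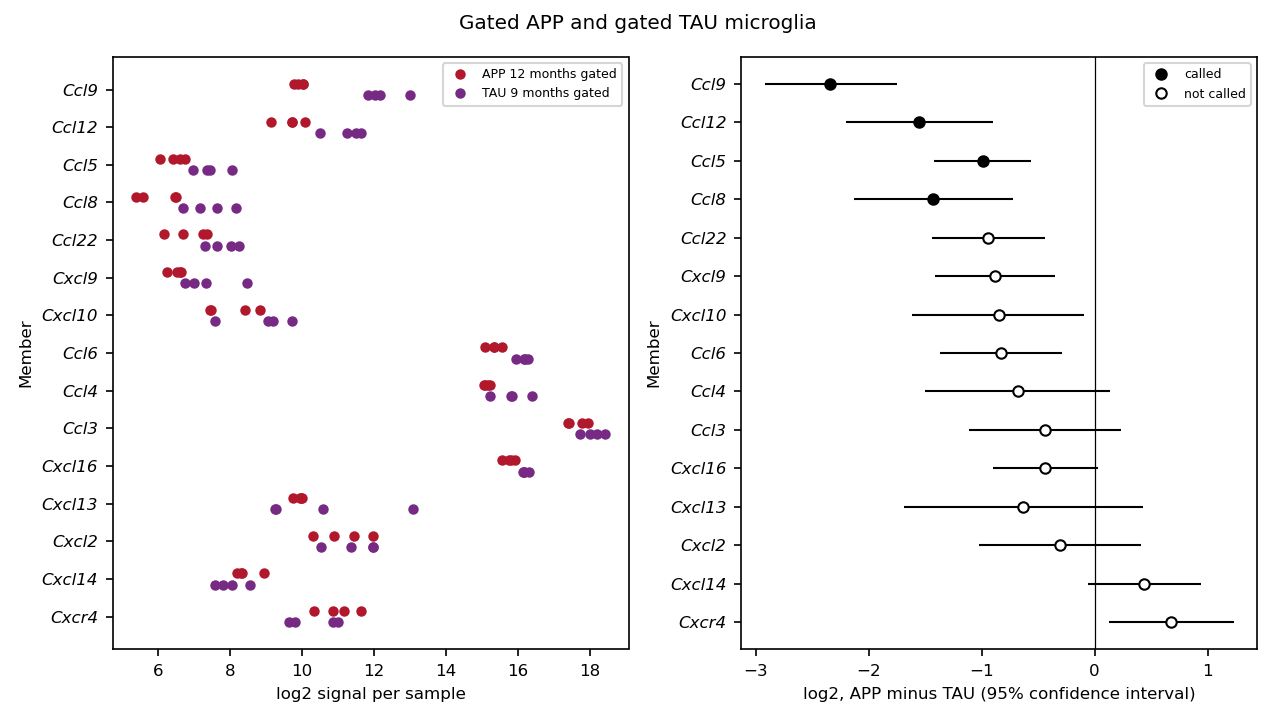
Left, log2 signals of 15 members in the 4 gated APP and 4 gated TAU samples. Right, the gated APP minus gated TAU log2 fold change with its 95% confidence interval, filled where called: Ccl9, Ccl12, Ccl5 and Ccl8 are filled and lie left of 0.

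Gated APP did not differ from gated TAU by a call in the other ligands described. The 95% intervals of the log2 fold change were -1.02 to 0.41 for Cxcl2, -1.69 to 0.43 for Cxcl13, -0.06 to 0.94 for Cxcl14, -0.90 to 0.03 for Cxcl16, -1.11 to 0.23 for Ccl3 and -1.50 to 0.14 for Ccl4. For Cxcl10 the interval was -1.62 to -0.09 (adjusted p = 0.456). Of the 7 members called against aged WT in gated TAU but not in gated APP, 3 (Ccl9, Ccl12 and Ccl5) were called between the gated groups and 4 (Ccl4, Ccl22, Cxcl9 and Cxcl10) were not. A difference between the gated groups thus passed the threshold for the first 3 only. The calls of Ccl12 and Ccl5 were lost in some alternative fits, as given above.

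**Figure D4:**
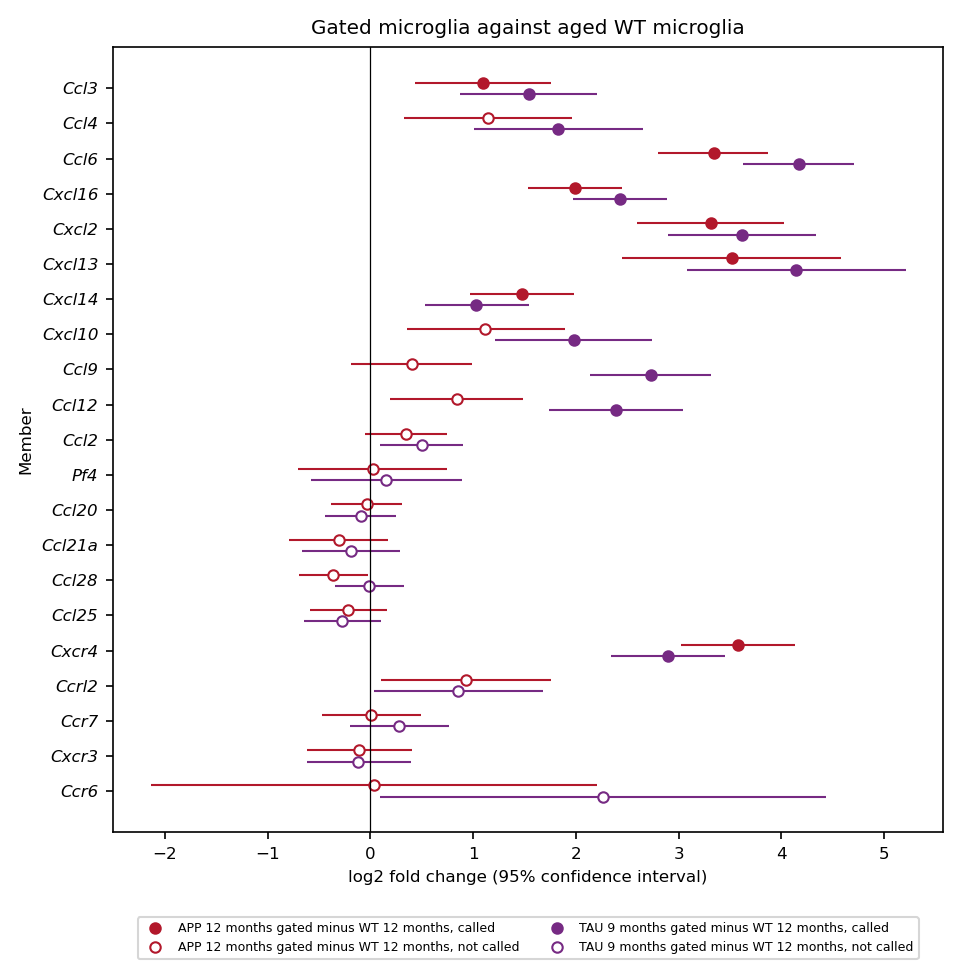
Log2 fold changes against aged WT, with 95% confidence intervals, for the 21 members above background in at least 1 group, gated APP in red and gated TAU in purple, filled where called. Aged WT is at background for Cxcl2, Cxcl10, Cxcl13, Cxcl14, Cxcr4, Ccl25 and Ccr6, whose plotted values are fitted differences and not exact folds. Ccl6 lies at 3.34 and 4.17, and Pf4, Ccl20, Ccr7 and Cxcr3 lie within 0.3 of 0.

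Among the receptors, Cxcr4 alone was called higher in the gated groups. Cxcr4, which binds Cxcl12 and guides leukocyte homing, had signals of 11.64, 11.17, 10.87 and 10.35 in gated APP and of 9.65, 11, 10.86 and 9.80 in gated TAU, against 7.59, 7.43, 7.39 and 7.32 in aged WT. Young APP samples were at 7.51, 7.12 and 7.23, young TAU at 7.20, 7.18, 7.01 and 7.18, and young WT at 7.19, 7.75, 7.51 and 7.27. All 8 gated samples were thus above background, and the means of the 4 groups without the gate lay below it. Cxcr4 was at least 7.0-fold higher in gated APP (adjusted p = 2.2e-09) and at least 4.37-fold higher in gated TAU (adjusted p = 9.54e-08) than in aged WT. Its ligand gene Cxcl12 was at background in all groups, with group means of 6.41 to 6.90. The gated groups themselves differed by 0.68 ± 0.27, higher in gated APP and not called (adjusted p = 0.367).

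Ccrl2, an atypical receptor that holds the attractant chemerin at the cell surface, was above background in all groups. Its signals were 10.50, 10.73, 10.04 and 10.40 in gated APP and 10.60, 10.67, 10.31 and 9.78 in gated TAU, against 10.40, 9.69, 9.48 and 8.38 in aged WT. The gated samples overlapped the wider aged WT samples, and neither difference was called (0.93 ± 0.40 for gated APP, adjusted p = 0.168, and 0.85 ± 0.40 for gated TAU, adjusted p = 0.21). Ccr7, the homing receptor of dendritic cells and T cells for Ccl19 and Ccl21, was at 10.08 ± 0.20 in gated APP and 10.35 ± 0.27 in gated TAU, against 10.07 ± 0.42 in aged WT. Cxcr3, the receptor for Cxcl9 and Cxcl10, was at 9.36 ± 0.36 in gated APP and 9.36 ± 0.47 in gated TAU, against 9.47 ± 0.17 in aged WT. The Ccr7 samples were at 10.22, 10.26, 9.83 and 10.02 in gated APP and 10.50, 10.01, 10.28 and 10.62 in gated TAU, against 9.95, 10.68, 9.69 and 9.97 in aged WT, and the groups overlapped. Neither Ccr7 nor Cxcr3 was called in any comparison. For Cxcr3 the 95% interval against aged WT was -0.62 to 0.40 in gated APP and -0.62 to 0.39 in gated TAU.

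The receptors of several ligands with strong signals were at background in every group. Group means were 5.99 to 6.73 for Ccr1, a receptor of Ccl3, Ccl6 and Ccl9, 5.84 to 6.70 for Cxcr6, the receptor of Cxcl16, and 5.64 to 5.97 for Ccr2, the receptor of Ccl2 and Ccl12. They were 5.90 to 6.68 for Cxcr2, the receptor of Cxcl1 and Cxcl2, and 5.94 to 6.55 for Cxcr5, the receptor of Cxcl13. The atypical receptor genes Ackr1, Ackr2, Ackr3 and Ackr4, whose products take up chemokines without signalling through G proteins, had group means of 5.10 to 7.02. Ccr3, the receptor of the eotaxins, was the only member called lower against aged WT, with 6.76, 6.62, 5.97 and 6.70 in gated APP and 7.0, 7.55, 7.69 and 7.10 in aged WT. Both means lie under background, so no fold is given (log2 difference -0.82 ± 0.21, adjusted p = 0.0132, and 0.0695 without aged WT replicates 2 and 4).

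Ccr6, the receptor of Ccl20 on some B and T cells, split the samples of the tau line. In young TAU it had signals of 11.95, 11.90, 5.83 and 11.40, and in gated TAU of 5.43, 9.60, 9.79 and 4.87. The 15 samples of the other 4 groups ranged from 4.70 to 5.59 with a median of 5.27, and none was above background. Replicates 1, 2 and 4 of young TAU and replicates 2 and 3 of gated TAU were far above them, and the remaining 3 tau samples were at background. The mean of young TAU was at least 5.60-fold above young WT, a bound that takes in replicate 3 at background and describes no single sample. The difference was not called over all probe sets (adjusted p = 0.762). Without young TAU replicate 3 the adjusted p was 0.00084. The neighbouring genes on chromosome 17 did not split in this way: over the 23 samples Cep43 ranged from 8.20 to 9.78, Rnaset2a from 16.91 to 17.91 and Sft2d1 from 16.01 to 17.43. Mpc1 ranged more widely, from 11.49 to 13.95. In young TAU Mpc1 was at 11.86, 12.20, 12.40 and 11.49, and in gated TAU at 13.17, 12.55, 12.73 and 12.37. Ccl20, the ligand, was at 8.36 ± 0.12 in young TAU and 8.47 ± 0.18 in young WT.

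**Figure D5:**
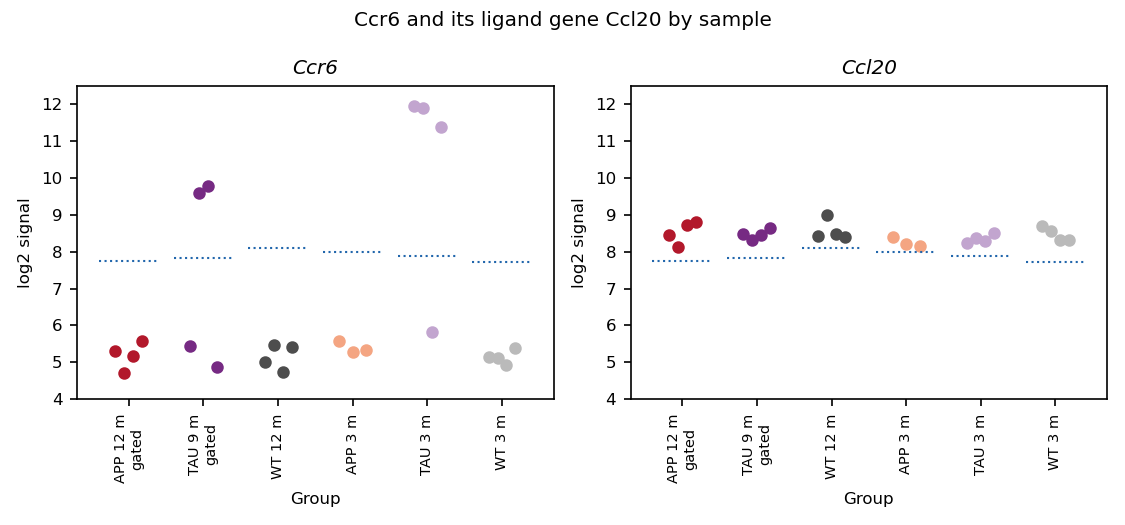
Log2 signals of Ccr6 (left) and of its ligand gene Ccl20 (right) in every sample, with the background level of each group as a dotted line. Ccr6 lies at 9.60 or higher in 5 of the 8 tau samples and at 5.83 or lower in the other 18 samples, while Ccl20 stays between 8.13 and 8.99.

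Several ligands above background were not called against aged WT in either gated group. Pf4, or platelet factor 4, which macrophages of the brain's borders also express, had 9.08, 9.18, 10.09 and 9.03 in gated APP and 9.03, 9.30, 10.11 and 9.47 in gated TAU, against 9.28, 9.03, 9.60 and 9.38 in aged WT. In both gated groups replicate 3 was the highest sample, and all 3 groups overlapped. Ccl2, the main monocyte chemoattractant, had 9.07, 9.49, 8.92 and 8.86 in gated APP and 9.40, 9.67, 8.78 and 9.06 in gated TAU, against 8.90, 8.91, 8.52 and 8.60 in aged WT. Its log2 fold change was 0.35 ± 0.19 in gated APP (adjusted p = 0.304) and 0.50 ± 0.19 in gated TAU (adjusted p = 0.125). Ccl20 ranged from 8.13 to 8.81 in gated APP and from 8.33 to 8.64 in gated TAU, against 8.39 to 8.99 in aged WT. Ccl20, Ccl21a, Ccl28 and Ccl25, ligands known from mucosal and lymphoid tissue, lay within about 1 log2 unit of background in all groups. Their log2 fold changes against aged WT ran from -0.36 to -0.03 in gated APP and from -0.28 to -0.01 in gated TAU. Ccl21a belongs to a family of near-identical genes, and the probe sets named Ccl21b probe set 1 and Ccl21c held the same value in all 23 samples, so that they cannot be told apart.

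Of the 41 members at background in every group, 8 had at least 1 sample above the background level of its own array. Besides Ccl5 and Ccr3, 3 were called against aged WT although both groups were at background. Cxcl9, an interferon-induced ligand of Cxcr3, had 7.01, 7.35, 8.47 and 6.76 in gated TAU, against 6.23, 5.80, 5.55 and 5.82 in aged WT (log2 difference 1.55 ± 0.26, adjusted p = 0.0003). Ccl22, a ligand of Ccr4 made by macrophages and dendritic cells, had 8.27, 7.31, 8.04 and 7.65 in gated TAU, against 6.81, 6.81, 6.64 and 6.61 in aged WT (log2 difference 1.10 ± 0.24, adjusted p = 0.00465). In neither gene did gated TAU samples overlap aged WT samples. Cxcl1, an ELR ligand of Cxcr2, had 6.45, 6.40, 5.91 and 5.61 in gated APP, against 5.09, 5.42, 5.92 and 5.19 in aged WT. These samples overlapped, and the call (0.69 ± 0.22, adjusted p = 0.04996) was lost in 18 of 23 fits that leave out 1 sample. In gated APP, Ccl22 was at 7.36, 6.18, 7.27 and 6.70, and the difference from aged WT was 0.16 ± 0.24 (adjusted p = 0.75).

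Within each line, the gated samples were also set against the young samples, with age and gate differing together. Gated APP had 11 members higher and 0 lower than young APP, where 6.19% of all probe sets were higher and 5.95% lower (27.4% of members and 23.2% of all probe sets had an unadjusted p under 0.05). Gated TAU had 16 higher and 0 lower than young TAU, where 6.67% of all probe sets were higher and 6.81% lower (38.7% of members and 25.4% of all probe sets had an unadjusted p under 0.05). Without young APP replicate 2 the gated APP count was 6. Ccl6 samples were at 11.76, 10.55 and 10.71 in young APP and at 12.68, 11.67, 11.60 and 11.69 in young TAU, below every gated sample. Ccl6 was at 15.33 ± 0.20 in gated APP, against 11.01 ± 0.66 in young APP, and at 16.16 ± 0.14 in gated TAU, against 11.91 ± 0.51 in young TAU. Cxcl16 was 5.48-fold higher in gated APP than in young APP (adjusted p = 1.82e-07) and 8.27-fold higher in gated TAU than in young TAU (adjusted p = 1.87e-09). Cxcl2 was at 7.82, 7.26 and 7.78 in young APP and at 7.92, 8.09, 7.37 and 7.80 in young TAU, near background. Ccl2 was called in gated TAU against young TAU (9.23 ± 0.39 against 8.60 ± 0.27, adjusted p = 0.0319), with overlap between the groups. That call was lost with the Y-linked covariate (adjusted p = 0.076), with only the groups compared (adjusted p = 0.0955) and without young TAU replicate 3 or 4 or gated TAU replicate 1 or 2 (adjusted p of 0.0903 to 0.133). Ccl4 and Ccl3 had SDs of 1.26 and 0.79 in young APP, where replicate 2 was low in both, at 11.90 and 15.59.

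No member was called in the comparisons made between groups without the gate, namely aged against young WT and each young transgenic line against young WT. Other pairs of these groups were not compared. For WT at 12 against 3 months, limma called 0.036% of all probe sets higher and 0% lower. An unadjusted p under 0.05 was found for 3 members (4.84%) and for 8.95% of all probe sets. For young APP against young WT 0% of probe sets were called, and an unadjusted p under 0.05 was found for 0 members and 2.92% of all probe sets. For young TAU against young WT 0% were called, and it was found for 1 member, Ccr6, and 4.15% of all probe sets. Cxcl13 was at 5.88 ± 0.43 in young APP and 5.87 ± 0.17 in young TAU, against 6.48 ± 0.19 in young WT, all at background. Ccl3 was at 16.50 ± 0.79 in young APP and 15.88 ± 0.34 in young TAU, against 16.16 ± 0.68 in young WT. In WT, Ccl12 was at 8.84 ± 0.30 at 12 months and 8.19 ± 0.41 at 3 months (0.65 ± 0.31, adjusted p = 0.558).

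An interaction term tested whether the change with age differed between a transgenic line and WT. The change ran from 3 to 12 months in APP and WT, but from 3 to 9 months in TAU. Only the later transgenic samples had the Clec7a gate, so age and gate cannot be told apart in the term. For APP it was called in 6 members, all higher, where 2.82% of all probe sets had a positive call and 0.977% a negative one. For TAU it was called in 12 members, all higher, where the shares were 2.6% and 1.15%. Cxcr4, Cxcl2, Cxcl13, Cxcl16 and Ccl6 were called in both. The term for Ccl6, above background in every group, was 3.88 ± 0.38 in APP (adjusted p = 6.68e-07) and 3.80 ± 0.37 in TAU (adjusted p = 5.8e-07). Cxcl13, Cxcr4 and Cxcl2 were at or near background in the ungated groups, so that their terms give no exact change. Ccl9 had a term of 0.47 ± 0.42 in APP (adjusted p = 0.649) and of 2.32 ± 0.40 in TAU (adjusted p = 0.00108). Without aged WT replicates 2 and 4, 7 members were called in TAU and 5 in APP.

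The wider chemokine pathway was followed in 4 lists of genes that are not members. Of 42 measured genes of signalling downstream of chemokine receptors, 2 were higher and 4 lower in gated APP, and 2 higher and 3 lower in gated TAU, against aged WT. Of all probe sets, 5.6% were higher and 3.48% lower in gated APP, and 5.09% higher and 3.67% lower in gated TAU. Gna13, a G protein subunit, was higher in both, by 1.13 ± 0.28 in gated APP (adjusted p = 0.011) and 1.48 ± 0.28 in gated TAU (adjusted p = 0.00136). Elmo1, part of the Dock2 complex that activates Rac in migrating cells, was lower in both, by -2.08 ± 0.23 (adjusted p = 1.11e-06) and -1.56 ± 0.23 (adjusted p = 7.98e-05). Rgs2, which shortens G protein signals, was also lower in both, at 14.28 ± 0.28 in gated APP and 14.97 ± 0.56 in gated TAU, against 15.99 ± 0.14 in aged WT. Fgr was called higher in gated TAU, at 7.61 ± 0.35 against 5.26 ± 0.29 in aged WT, both under background. It was the only gene of the list called between gated APP and gated TAU (log2 difference -1.75 ± 0.21, adjusted p = 2.74e-05). The median log2 fold change of the list was -0.12 in gated APP, where that of all probe sets was -0.06, and -0.13 in gated TAU, where it was -0.05.

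Of 19 measured NF-kB and IRF regulators, 3 were higher in gated APP and 2 in gated TAU, and 0 were lower. Stat2 and Irf9, partners in the interferon response, were higher in gated APP by 1.15 ± 0.25 (adjusted p = 0.00338) and 0.89 ± 0.24 (adjusted p = 0.0202), and Irf8, a factor of macrophage identity, was higher in gated TAU by 1.04 ± 0.26 (adjusted p = 0.0117). Irf7 was called in both at levels under background. Of 10 enzymes that cleave chemokines, 1 was higher and 2 lower in gated APP, and 3 were higher in gated TAU. Mmp12, macrophage elastase, was at 11.40 ± 1.31 in gated APP and 13.60 ± 1.01 in gated TAU, against 7.33 ± 0.41 in aged WT, and differed between the gated groups (-2.19 ± 0.50, adjusted p = 0.0305). Mmp2, a gelatinase, was at 9.14 ± 0.06 in gated APP and 11.19 ± 0.61 in gated TAU, against 10.20 ± 0.13 in aged WT. It was called lower in gated APP and higher in gated TAU than in aged WT. Of 11 measured receptors for other attractants, 0 were higher, and P2ry12, the ADP receptor of resting microglia, and Gpr183, an oxysterol receptor, were lower in both. P2ry12 was at 17.03 ± 0.08 in gated APP and 16.88 ± 0.28 in gated TAU, against 18.30 ± 0.09 in aged WT.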

How the data were processed

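Per the submitters' processing notes, the authors made log2 values with RMA in the Transcriptome Analysis Console. RMA corrects background, normalizes arrays against each other and summarises the probes of each set. Versions, parameters and the genome build are not given in the sources used here. No step was added to the deposited log2 values, and no probe set was dropped. The number of arrays limits the precision. Symbols came from the platform annotation (19572 of 22203 probe sets had one).

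The 6 group means were fitted over all 23 samples at once with limma 3.58.1 in R 4.3.3, leaving 17 residual and 5.11 prior degrees of freedom. Tests are two-sided. Calls use an adjusted p under 0.05, with the Benjamini-Hochberg adjustment taken across the whole array of 22203 probe sets, and the fit was tested on simulated data. Errors of fold changes are SE, and errors of levels are SD over the samples of a group. Levels are given for members called in a contrast or above background, with values in every sample for those the results turn on. The pathway genes named are a selection of the called ones. Alternatives changed the variance model, array weights, scaling, quantile normalization, the filter on dim probe sets, the samples fitted, a replicate block and a Y-linked covariate. Same-numbered samples correlated above 0.1 in every pair only between gated APP and gated TAU (r of 0.182 to 0.424). The members and the gene lists were chosen with earlier results of these data known. Promoters are from RefSeq (GRCm38.p6), where 46 of 61 symbols had one.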

Additional observations from a re-analysis of the deposited data

Results flagged for a closer look

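Single samples stood apart from the rest of their group in 9 of the 135 groups of 4 tested over 27 members, where chance gives about 1 in 20. Ccr6 was at 5.83 in young TAU replicate 3, against 11.40 to 11.95 in the other 3. Cxcl2 was at 8.81 in aged WT replicate 1, against 7.43 to 7.65. Ccl6 was at 12.68 in young TAU replicate 1, against 11.60 to 11.69. Ccl3 was at 17.17 in young WT replicate 4, against 15.73 to 15.96. Pf4 was at 10.09 in gated APP replicate 3, against 9.03 to 9.18. Ccl20 was at 8.99 in aged WT replicate 2, against 8.39 to 8.47. Smaller gaps were in Cxcr3 (9.21 in aged WT replicate 3), Ccl22 (7.04 in young WT replicate 4) and Cxcr4 (7.01 in young TAU replicate 3).

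The change with age differed from that of WT by the interaction term in 6 members in APP and 12 in TAU. In APP the terms (log2) were 3.72 for Cxcr4, 3.47 for Cxcl2, 4.11 for Cxcl13, 2.06 for Cxcl16, 3.88 for Ccl6 and 1.37 for Cxcl14. In TAU they were 3.18 for Cxcr4, 3.60 for Cxcl2, 4.76 for Cxcl13, 2.66 for Cxcl16, 3.80 for Ccl6, 2.32 for Ccl9 and 1.94 for Cxcl10. They were 1.89 for Ccl12, 1.82 for Ccl3, 1.69 for Ccl5, 1.43 for Ccl22 and 1.36 for Cxcl9. Cxcr4, Cxcl13, Cxcl14, Cxcl10, Ccl5, Ccl22 and Cxcl9 were at background in the ungated groups, and Cxcl2 at or near it, so their terms are fitted differences and not exact changes. Several of these calls were lost in fits without 1 sample, namely Cxcl10 in 12 such fits, Cxcl9 in 9, Cxcl14 in 7 and Ccl3 in 6. Those of Cxcl14, Cxcl9, Cxcl10, Ccl12 and Ccl3 were also lost with the Y-linked covariate, and these 5 and Ccl22 without aged WT replicates 2 and 4. The Clec7a gate was applied to the later age of the transgenic lines only, so age and gate cannot be told apart in these terms. The TAU terms also set a change from 3 to 9 months against a WT change from 3 to 12 months.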

How the results depend on the processing

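No result changed direction. Of 2289 alternative values of 73 single member results, 2153 kept their side of the threshold, 135 lost the call and 1 gained it, and 50 of the 73 results never changed side. Many of these fits left out a sample of neither compared group. Such a fit cannot change the fold change, only the spread and the adjusted p, so these totals overstate how far the results were tried. Members removed by the filter on dim probe sets have no value in that fit. Counts of called members moved by over 1.5 times in 4 comparisons. Between gated APP and gated TAU (4 in the report) the count was 2 with probe sets above background only. That filter removes Ccl5 and Ccl8 before the fit. The count was also 2 with only the groups compared. Leaving out 1 sample gave 2 to 5, with 2 without gated APP replicate 2 or gated TAU replicate 3. For gated against young APP (11) it was 7 with the Y-linked covariate, and 6 to 12 when 1 sample was left out, 6 without young APP replicate 2. For young TAU against young WT (0) leaving out 1 sample gave 0 to 1, the 1 being Ccr6 without replicate 3. For the TAU interaction (12) it was 7 without both aged WT replicates 2 and 4, and 9 to 14 when 1 sample was left out. Apart from the removal of Ccl5 and Ccl8 by the filter, the causes were not tested. Members above background in any group (21) numbered 28 at the 90th percentile, 15 at the 99th and 17 when every sample of a group had to pass. With the replicate number as a block, the count was 4 between the gated groups, where same-numbered samples correlated with r of 0.182 to 0.424. The sample titles give replicate numbers without naming pairs, and the main fit used no pairing. A same-numbered pair of gated APP and aged WT reached 0.473. In the other comparisons same-numbered samples did not all correlate above 0.1, and the replicate block gave 10 and 14 for gated APP and gated TAU against aged WT, 12 and 17 against their young samples, 6 and 13 for the interactions and 0 for the rest. Differences of members near background are limited by signal over background.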
